A study of Mus musculus with 2 samples.

Results

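The ephrins, semaphorins, slits and netrins are cell-surface or secreted guidance cues, and the Eph receptors, plexins, Robo and Unc5 proteins are their receptors. Members were the genes whose symbol in the probe annotation belongs to one of these 8 families, and 64 of 16444 named genes qualified, each with 1 probe. They comprise 8 ephrins, 14 Eph receptors, 20 semaphorins, 8 plexins, 3 slits, 4 Robo receptors, 3 netrins and 4 Unc5 receptors. The members were measured in mouse Flk-1-positive early mesodermal cells. The AU019823 gene-trapped sample came from embryonic stem cells whose AU019823 gene was disrupted on both alleles, with RNA of 300000 cells at day 4.5. The AU019823 revertant sample came from cells described as nearly wild type, with RNA of 350000 cells at day 4.5. Both stem cell lines had been grown on OP9, a mouse bone marrow stromal line that supports blood formation, and both samples were sorted for Flk-1, the receptor encoded by Kdr. Day 4.5 is the time in the sample descriptions, whereas the protocol gives a different length of culture on OP9. Each group has 1 array and no replicate, so no p-value or SD between cultures is given, and each difference compares these 2 samples only. The 2 descriptions carry unlike codes that the labels do not explain; should they name clones, a clone effect and a genotype effect cannot be told apart.

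Guidance cues were first described in growing axons, where they attract or repel the growth cone, and the same families act in early embryos and in vessels. Ephrins and Eph receptors signal between touching cells and in both directions. Class A ephrins are held in the membrane by a lipid anchor, whereas class B ephrins span it. Semaphorins signal through plexins, several of the secreted ones with a neuropilin as co-receptor, slits signal through Robo receptors, and netrins signal through Dcc, neogenin and the Unc5 receptors. In the embryonic vasculature ephrin-B2 marks arteries and its receptor EphB4 marks veins, and Plxnd1 and Robo4 are known from endothelial cells.

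The median spot signal was 38.6 on the gene-trapped array and 47.5 on the revertant array, and the limit for calling a probe above background, the mean of the blank spots plus 2 SD, was 22.3 on the gene-trapped array and 24.99 on the revertant array. Signals below are normalised log2 spot intensities unless called raw, and differences are gene-trapped minus revertant. The normalisation adds an offset of 50, which makes the differences of dim probes smaller than the ratio of their signals. The probe of the disrupted gene had 8.49 in gene-trapped and 8.88 in revertant cells, a difference of -0.39, and its place relative to the trap is unknown, so it does not check the labels. Kdr had 9.27 in gene-trapped and 9.92 in revertant cells, a difference of -0.65, which was -2.04 with the scanner's local background subtracted. Of 10 genes fixed as markers of Flk-1 mesoderm, all 10 were above background on both arrays, against 83.6% of all named genes. With so common a call, this count does not check the identity of the labelled population. At least 1.5-fold higher in gene-trapped cells were 3 of the 10, Mixl1 (1.99), Etv2 (1.305) and T (0.76). At least 1.5-fold lower were 2, Tal1 (-0.69) and Kdr (-0.65). Over all named genes above background on both arrays the shares were 2.28% higher and 3.52% lower. The signals of the 10 summed to 5402 in gene-trapped cells and 3909 in revertant cells. Etv2 alone had a raw signal of 1739 in gene-trapped and 810 in revertant cells, and 5 of the 10 were below 0. Of 6 endothelial markers 5 were above background on both arrays. All 5 were lower in gene-trapped cells, against 46.6% of all named genes above background on both arrays. The signals of the 6 markers summed to 759 in gene-trapped cells and 1823 in revertant cells on the linear normalised scale. Flt1 alone had a raw signal of 344 in gene-trapped and 1263 in revertant cells. Of 10 stromal and fibroblast markers all 10 were above background on both arrays and 8 were lower in gene-trapped cells. Their signals summed to 2256 in gene-trapped and 4576 in revertant cells. Acta2 alone had a raw signal of 1195 in gene-trapped and 3603 in revertant cells. Such sums follow the brightest probes and do not measure the share of a cell type. In the endothelial and stromal lists, only Cdh5 failed to exceed background, on the gene-trapped array. Of 6 neuroectoderm markers 5 have a probe and 3 exceeded background in both samples, Pax6 and Neurod1 not among them. None of the 3 was below 0, 1 passed 1.5-fold (Otx2, 1.29), their median was 0.58, and the summed signals of the list were 762 in gene-trapped cells and 460.5 in revertant cells. The part that these cell types have in the differences below was not tested, and fewer cells of a type cannot be told apart from less RNA per cell.

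Among the guidance genes, 53 of 64 (82.8%) exceeded background in both samples, against 83.6% of all named genes. Above background in revertant cells alone were 4 of the 64, against 480 of 16444 named genes. In gene-trapped cells alone it was 1 of the 64, against 268 of 16444. The 53 had a median difference of -0.020, with 22 above 0 and 31 below 0 (58.5%). All 13753 named genes above background on both arrays had a median of 0.0079, and 46.6% were below 0. Under 75th percentile scaling 14 of the 53 were below 0, and 30 were below the median of all named genes. Of the 53, 0 reached 2-fold upwards and 1 reached 2-fold downwards in gene-trapped cells. Over all named genes the same limits were passed by 0.334% upwards and 1.08% downwards. At 1.5-fold, 0 members were higher and 2 were lower (3.77%), against a background of 2.28% upwards and 3.52% downwards. At these folds the members' shares were thus near the background in each direction, and 51 of 53 (96.2%) lay within 1.5-fold, against 94.2% of all named genes. The 2 lower members were the ephrin gene Efna1 and the netrin receptor gene Unc5c.

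**Figure D1:**
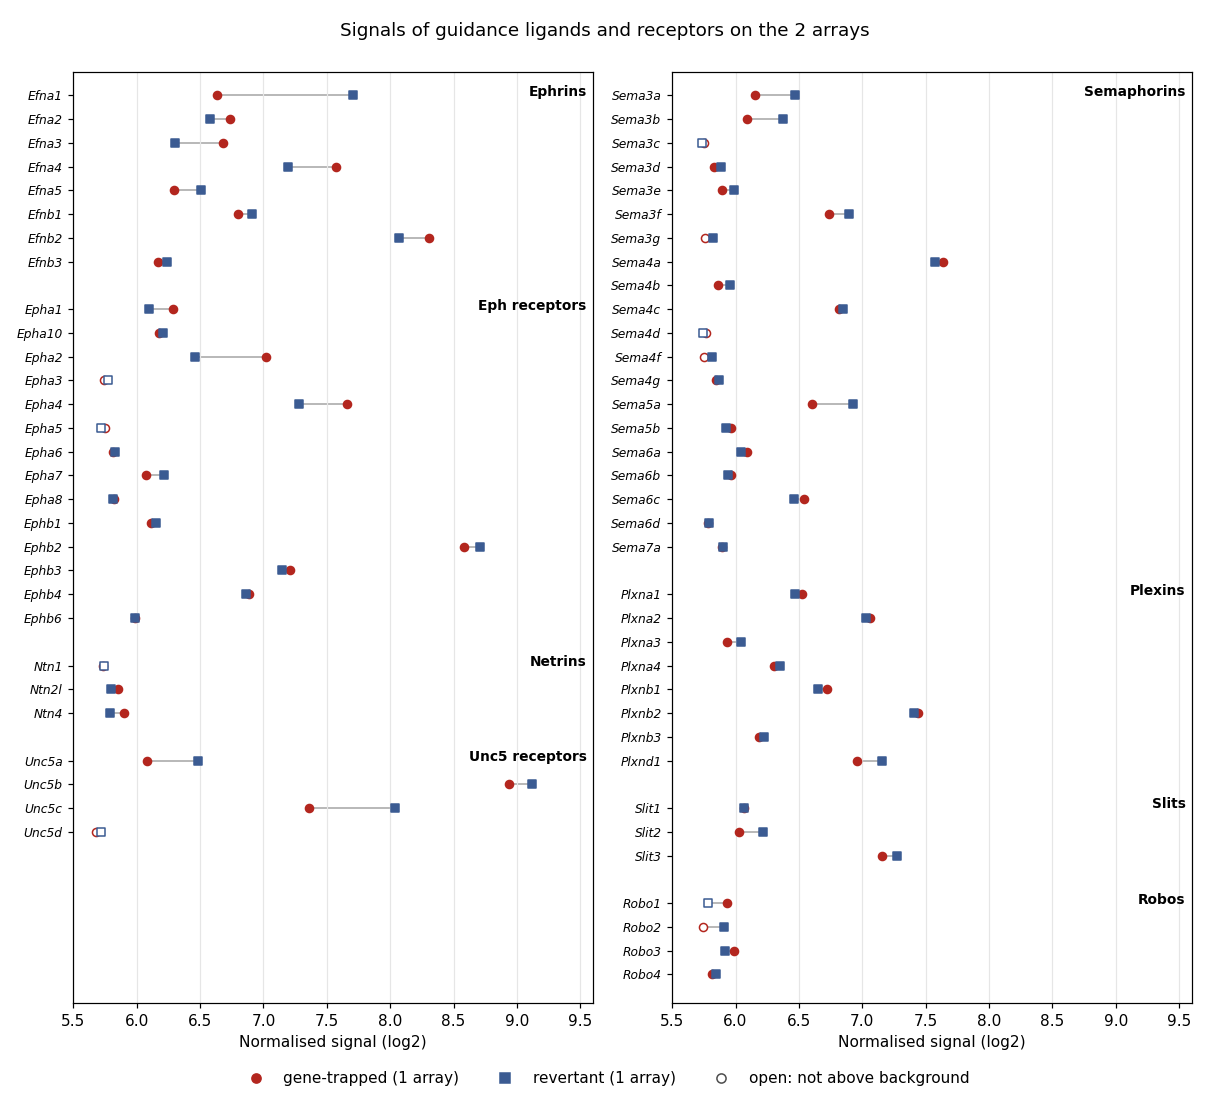
Normalised log2 signal of each of the 64 members (rows, grouped by family) on the gene-trapped array (circles) and the revertant array (squares), 1 array each, with open symbols for probes not above background. Most pairs of symbols lie close together, and the longest lines are those of Efna1 (6.64 in gene-trapped, 7.71 in revertant cells) and Unc5c (7.36 in gene-trapped, 8.04 in revertant cells); signals of different probes cannot be compared with each other.

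The 8 ephrin genes, which encode the ligands of the Eph receptors, were all above background on both arrays. Their differences spread more widely in class A, from -1.07 (Efna1) to 0.38 (Efna4), than in class B, from -0.11 (Efnb1) to 0.24 (Efnb2). With the local background subtracted, class A ran only from -0.078 (Efna5) to 0.16 (Efna2). Efna1, first found as a gene induced by tumour necrosis factor in human endothelial cells, had a raw spot signal of 60.1 in gene-trapped and 202 in revertant cells. Its normalised signals were 6.64 in gene-trapped and 7.71 in revertant cells. The difference was -1.07 (2.10-fold lower in gene-trapped cells), and 0.851% of all named genes above background had a lower one. Among the 500 named genes nearest to it in mean signal, 1.2% were lower, and their differences had an SD of 0.34. In the authors' deposited table Efna1 had 34.2 in gene-trapped and 118 in revertant cells, which is 3.46-fold lower. The Efna1 value rests on the treatment of the local background: that column read 44.1 at its spot on the gene-trapped array and 187 on the revertant array, and with it subtracted the difference was 0.055.

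Efna3 and Efna4, which encode other lipid-anchored ligands of EphA receptors, were higher in gene-trapped cells by less than 1.5-fold. Efna3 had 6.68 in gene-trapped and 6.30 in revertant cells, a difference of 0.38, and 97.6% of the 500 genes nearest in signal lay below it. Efna4 had 7.57 in gene-trapped and 7.19 in revertant cells, a difference of 0.38, with 90.4% of its 500 nearest below it. In the RefSeq gene table Efna1, Efna3 and Efna4 are neighbours on chromosome 3, with 0 other protein-coding genes between Efna1 and Efna3 or between Efna3 and Efna4. With the local background subtracted, all 3 lay above 0, Efna1 at 0.055, Efna3 at 0.070 and Efna4 at 0.11, so the difference in sign between Efna1 and its neighbours did not hold under that setting. Of the others, Efna2 had 6.74 in gene-trapped and 6.58 in revertant cells (0.16), and Efna5, whose product repels axons in the visual system, had 6.29 in gene-trapped and 6.51 in revertant cells (-0.22).

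The promoter windows of these 3 neighbours are shown because the genes lie side by side and Efna1 had the lowest difference of the 3. Each covers the 250 bases before and the 50 bases after the outermost RefSeq start of the gene in GRCm38.p6, on the minus strand, at chr3:89280902-89281201 for Efna1, chr3:89322890-89323189 for Efna3 and chr3:89337979-89338278 for Efna4. Capitals mark the letters ACGTG or GCGTG on either strand (CACGT or CACGC as read here), the core that hypoxia-inducible factors bind.
Efna1: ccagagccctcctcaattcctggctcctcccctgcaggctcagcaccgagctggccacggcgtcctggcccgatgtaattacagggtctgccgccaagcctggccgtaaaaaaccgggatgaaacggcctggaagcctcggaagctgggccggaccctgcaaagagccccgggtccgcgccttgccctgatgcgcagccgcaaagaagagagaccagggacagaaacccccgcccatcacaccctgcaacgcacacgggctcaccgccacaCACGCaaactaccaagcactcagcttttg
Efna3: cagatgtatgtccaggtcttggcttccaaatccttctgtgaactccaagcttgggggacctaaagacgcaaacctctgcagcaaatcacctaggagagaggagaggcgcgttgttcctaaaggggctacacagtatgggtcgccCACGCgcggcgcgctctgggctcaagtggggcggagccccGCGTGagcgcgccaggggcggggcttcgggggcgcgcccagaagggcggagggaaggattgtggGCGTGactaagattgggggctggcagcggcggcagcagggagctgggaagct
Efna4: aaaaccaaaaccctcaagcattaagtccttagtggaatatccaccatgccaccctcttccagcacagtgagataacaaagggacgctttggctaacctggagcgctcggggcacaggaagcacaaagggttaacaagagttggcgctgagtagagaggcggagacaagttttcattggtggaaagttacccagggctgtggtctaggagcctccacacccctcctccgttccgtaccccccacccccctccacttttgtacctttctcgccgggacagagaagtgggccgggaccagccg
The Efna1 window holds 1 match, the Efna3 window 3 and the Efna4 window 0. Of the members, 55 have a window in the table, and 28 of these (50.9%) hold at least 1 match, against 43.8% of 27025 genes with a window. A match is a run of letters and not a site shown to be bound.

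The 3 class B ephrin genes differed little. Efnb2, the arterial ligand of EphB4, had a raw signal of 255 in gene-trapped and 268 in revertant cells. After normalisation it had 8.31 in gene-trapped and 8.07 in revertant cells, a difference of 0.24, which turned to 0.086 under median scaling. Efnb1, whose loss in mice disturbs skeletal and neural crest development, had a difference of -0.11, and Efnb3, a midline cue for axons in the spinal cord, had -0.067. The median of the 8 ephrins was 0.046, with 4 above and 4 below 0.

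Of 14 Eph receptor genes, 12 exceeded background in both samples, and Epha3 and Epha5 did so in neither. Epha2, which encodes a principal receptor of ephrin-A1, had a raw signal of 86.2 in gene-trapped and 63.0 in revertant cells. Its normalised signals were 7.02 in gene-trapped and 6.46 in revertant cells, a difference of 0.56 (1.47-fold higher), just short of 1.5-fold. Among its 500 nearest genes 98.2% lay below it. The receptor and its ligand Efna1 had differences of opposite sign here, but with the local background subtracted both lay above 0, Efna1 at 0.055 and Epha2 at 0.25. In the authors' deposited table Epha2 had 56.4 in gene-trapped and 26.7 in revertant cells, or 2.11-fold higher. Its promoter window, shown because Epha2 had the largest positive difference among the 53 members, lies on the plus strand at chr4:141300971-141301270 (GRCm38.p6) and holds 2 of the matches marked in capitals as above.
Epha2: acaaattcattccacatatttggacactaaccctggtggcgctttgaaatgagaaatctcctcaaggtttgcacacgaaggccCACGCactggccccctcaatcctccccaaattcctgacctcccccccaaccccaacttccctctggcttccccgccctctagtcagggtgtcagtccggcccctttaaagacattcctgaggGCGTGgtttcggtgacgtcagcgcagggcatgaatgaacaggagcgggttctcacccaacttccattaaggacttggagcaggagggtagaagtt

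Epha4, a receptor that binds both ephrin classes and acts at somite boundaries, had 7.66 in gene-trapped and 7.28 in revertant cells, a difference of 0.37. That difference was -0.14 with the local background subtracted. Epha1 had 6.29 in gene-trapped and 6.10 in revertant cells (0.19), and Epha7 had 6.08 in gene-trapped and 6.22 in revertant cells (-0.14). The class B receptors lay between -0.13 and 0.065, a range that also holds Epha6, Epha8 and Epha10 of class A. With the local background subtracted, Ephb2 had -0.34 and Ephb3 had -0.14. Ephb4, the venous receptor of ephrin-B2, had 6.89 in gene-trapped and 6.86 in revertant cells, a difference of 0.021. Ephb2 had 8.58 in gene-trapped and 8.70 in revertant cells (-0.13), and Ephb3 had 7.21 in gene-trapped and 7.14 in revertant cells (0.065). The ligand and receptor pair Efnb2 and Ephb4 thus had differences of 0.24 and 0.021, both under 1.5-fold. The remaining receptor genes above background, Ephb1, Ephb6, Epha6, Epha8 and Epha10, lay between -0.042 and 0.0069, and the products of Ephb6 and Epha10 are known to lack kinase activity.

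**Figure D2:**
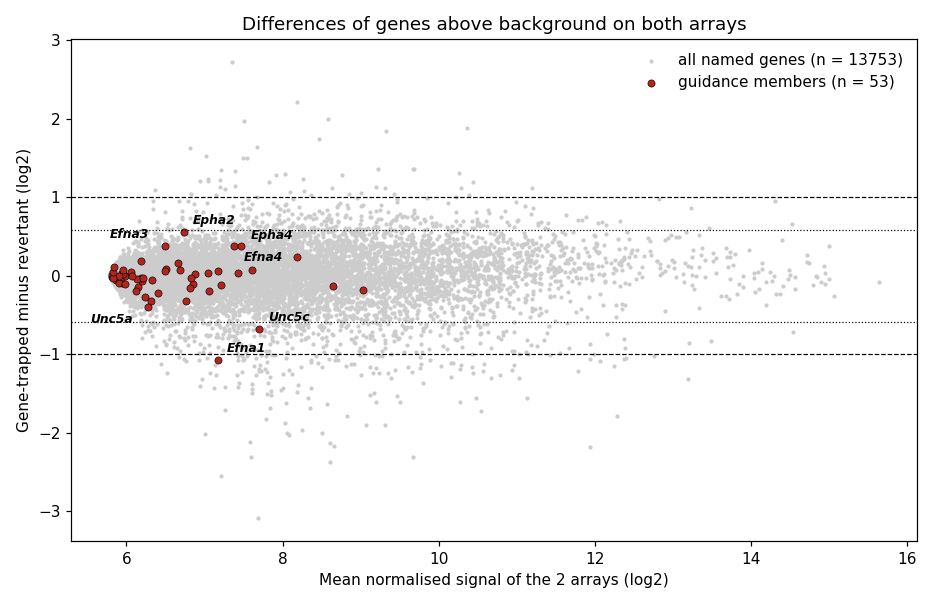
Log2 difference (gene-trapped minus revertant, y axis) against the mean normalised log2 signal of the 2 arrays (x axis) for 13753 named genes above background on both arrays (grey) and the 53 guidance members among them (red), with dashed lines at 2-fold and dotted lines at 1.5-fold. Efna1 (-1.07) lies below the 2-fold line and Unc5c (-0.68) below the 1.5-fold line, Epha2 (0.56) lies just under the upper 1.5-fold line, and members at the dim left end lie close to 0.

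Of 20 semaphorin genes, 15 exceeded background in both samples. A difference below 0 was found for 10 of the 15 (66.7%), against 46.6% of all named genes. The 15 had a median of -0.026 and a range from -0.32 to 0.080, so none passed 1.5-fold. The count below 0 depended on the setting. Under median scaling 8 of the 15 were below 0, and 8 were below the median of all named genes. Under 75th percentile scaling 4 were below 0 and 8 below that median. With the local background subtracted 12 were below 0 and 10 below that median. All 5 of the secreted class 3 members that were above background on both arrays were below 0, although 4 were so under median scaling and 4 with the local background subtracted. Scaling to the 75th percentile moved the median of all named genes to 0.15, and 4 of the 5 were below that median. Sema3a, a repellent of sensory axons that signals through Nrp1 and class A plexins, had a raw signal of 35.8 in gene-trapped and 64.0 in revertant cells. Its normalised signals were 6.15 in gene-trapped and 6.47 in revertant cells, a difference of -0.32, and 4.8% of its 500 nearest genes lay below it. Sema3b had 6.09 in gene-trapped and 6.37 in revertant cells (-0.28). Both probes are dim, and in the authors' deposited table, which subtracts about the blank level and adds no offset, Sema3a was 2.03-fold and Sema3b 2.01-fold lower.

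Sema5a, a transmembrane semaphorin with thrombospondin repeats, had 6.60 in gene-trapped and 6.93 in revertant cells, a difference of -0.32. Sema3f, which signals through neuropilin-2, had 6.74 in gene-trapped and 6.90 in revertant cells (-0.15). Sema3e, the ligand of Plxnd1, had 5.89 in gene-trapped and 5.99 in revertant cells (-0.096), and Sema4b had 5.86 in gene-trapped and 5.96 in revertant cells (-0.097). Of the 500 genes nearest in signal, 9.0% lay below Sema5a, 20.4% below Sema3f, 6.8% below Sema3e and 5.8% below Sema4b. Sema4a had a difference of 0.069, Sema4c -0.026 and Sema6c 0.080. The other members above background on both arrays, Sema3d, Sema4g, Sema5b, Sema6a, Sema6b and Sema7a, lay between -0.056 and 0.046.

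Sema3g, Sema4f and Sema6d, 3 of the 20 semaphorins, exceeded the background limit in revertant cells alone, as did 480 of 16444 named genes. Sema3g had a raw signal of 21.2 in gene-trapped and 26.7 in revertant cells, Sema4f 21.0 in gene-trapped and 26.6 in revertant cells, and Sema6d 22.2 in gene-trapped and 25.4 in revertant cells. Each is within a few units of the background limits. After quantile normalisation and set against the lowest signal above background on the gene-trapped array, Sema3g and Sema4f were at least 1.02-fold lower. Sema6d was at least 1.002-fold lower. Under median scaling the differences were above 0 (Sema3g 0.041, Sema4f 0.040 and Sema6d 0.10). They were so under 75th percentile scaling too (0.18, 0.18 and 0.24). The direction thus depended on the scaling, and these calls do not show absence. Sema3c and Sema4d were on neither array above background.

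All 8 plexin genes, the receptors of the semaphorins, were above background on both arrays and had a median of -0.0032. Plxnd1, the Sema3e receptor known from endothelium, had 6.96 in gene-trapped and 7.15 in revertant cells, a difference of -0.19. Plxna3 had 5.93 in gene-trapped and 6.04 in revertant cells (-0.11), and Plxna4 had 6.30 in gene-trapped and 6.35 in revertant cells (-0.054). Plxnb1, a receptor of Sema4d, had 6.72 in gene-trapped and 6.65 in revertant cells (0.069). Plxna1 had 6.53 in gene-trapped and 6.47 in revertant cells (0.063), and Plxnb3 had 6.19 in gene-trapped and 6.23 in revertant cells (-0.036). Plxna2 had 0.032 and Plxnb2 0.030. The plexins lay between -0.19 and 0.069 and none passed 1.5-fold. Of the 8 plexins, 4 were below the median of all named genes here, 7 were below it with arrays scaled to their medians or to their 75th percentiles, and all 8 were with the local background subtracted.

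The 3 slit genes, which encode secreted ligands of the Robo receptors, were above background on both arrays. Slit2 had 6.03 in gene-trapped and 6.22 in revertant cells, a difference of -0.19, and 4.2% of its 500 nearest genes lay below it. Slit3 had 7.15 in gene-trapped and 7.27 in revertant cells (-0.12), and Slit1 had 6.07 on both arrays (-0.0021). Slit3 turned to 0.35 with the local background subtracted, and Slit1 turned to 0.031 under median scaling.

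The Robo receptors were dim. Robo3, which acts in midline crossing of axons, had 5.99 in gene-trapped and 5.92 in revertant cells (0.076), and the endothelial Robo4 had 5.82 in gene-trapped and 5.85 in revertant cells (-0.029). Robo1 and Robo2, neighbours on chromosome 16 in the RefSeq table, were each above background on 1 array, and not the same one. Robo1 had a raw signal of 27.3 in gene-trapped and 24.98 in revertant cells, just under the revertant limit, and was at least 1.11-fold higher. Robo2 had a raw signal of 20.8 in gene-trapped and 30.8 in revertant cells and was at least 1.09-fold lower after quantile normalisation. Its difference was 0.066 under 75th percentile scaling, where the median of all named genes was 0.15. In the authors' deposited table Robo1 had 6.19 in gene-trapped and 1.68 in revertant cells, where the median of each column is 25, and Robo2 had a value in revertant cells only.

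The Unc5 receptors mediate the repellent action of netrins on axons, and 3 of their 4 genes exceeded background in both samples. Unc5c, the gene mutated in mice with rostral cerebellar malformation, had a raw signal of 116 in gene-trapped and 262 in revertant cells. Its normalised signals were 7.36 in gene-trapped and 8.04 in revertant cells, a difference of -0.68 (1.60-fold lower), and 2.68% of all named genes above background had a lower one. Among its 500 nearest genes 6.0% lay below it, and their SD was 0.42. Unlike Efna1, it was as low with the local background subtracted (-0.77), and it ran from -0.94 in the authors' table to -0.68 over the settings tried. Its promoter window, shown as that of the other member past 1.5-fold, lies on the plus strand at chr3:141465314-141465613 (GRCm38.p6) and holds 0 of the matches.
Unc5c: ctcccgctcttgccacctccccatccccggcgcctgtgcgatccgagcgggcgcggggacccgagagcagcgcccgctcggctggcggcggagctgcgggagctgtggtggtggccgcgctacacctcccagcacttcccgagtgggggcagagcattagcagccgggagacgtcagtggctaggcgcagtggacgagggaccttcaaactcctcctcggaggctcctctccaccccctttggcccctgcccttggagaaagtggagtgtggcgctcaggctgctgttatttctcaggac

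Unc5a had a raw signal of 32.7 in gene-trapped and 64.8 in revertant cells. After normalisation it had 6.08 in gene-trapped and 6.48 in revertant cells, a difference of -0.40 (1.32-fold lower), with 2.2% of its 500 nearest genes below it. In the authors' deposited table it was 2.57-fold lower. Unc5b, the Unc5 receptor known from vessels, had a raw signal of 416 in gene-trapped and 575 in revertant cells. Its normalised signals were 8.94 in gene-trapped and 9.12 in revertant cells (-0.18), and the difference was 0.56 with the local background subtracted. The local background column read 243 at the Unc5b spot on the gene-trapped array and 488 on the revertant array. All 3 Unc5 genes above background were below 0, as were 46.6% of all named genes above background on both arrays. All 3 stayed below 0 with arrays scaled to their medians or 75th percentiles, but 2 of 3 did with the local background subtracted. Unc5d was above background on neither array. Of the netrins, Ntn4, a basement membrane netrin, had 5.90 in gene-trapped and 5.79 in revertant cells (0.10), and Ntn2l, now named Ntn3, had 5.85 in gene-trapped and 5.80 in revertant cells (0.052). Ntn1 was above background on neither array, with raw signals of 20.4 in gene-trapped and 23.3 in revertant cells.

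**Figure D3:**
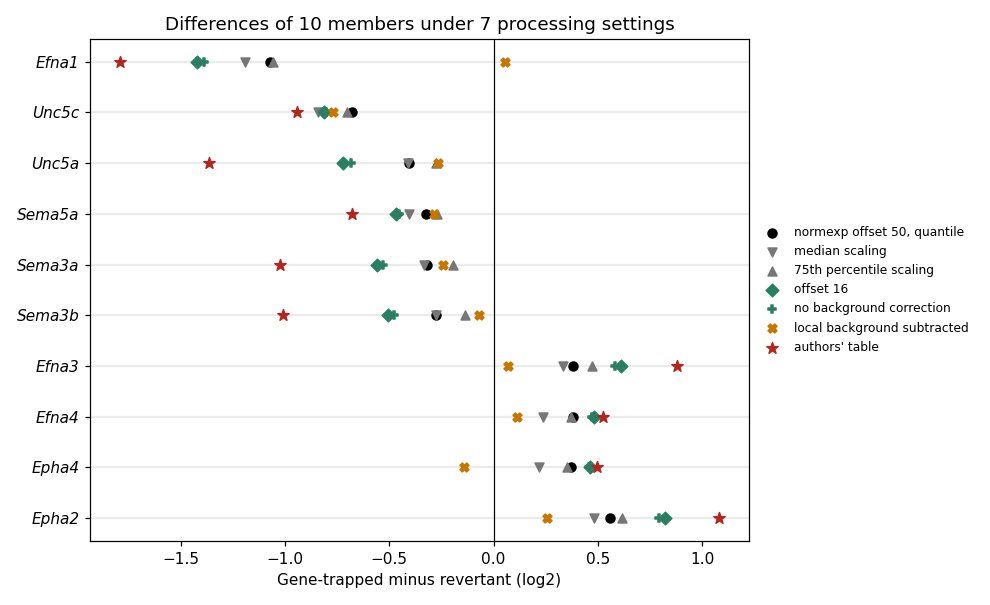
Log2 difference (gene-trapped minus revertant, x axis) of 10 members (rows) under 7 processing settings, 1 symbol per setting and 1 array per group. Unc5c stays between -0.94 and -0.68, and Efna1 lies between -1.79 and -1.06 except for 0.055 with the local background subtracted, a setting under which Epha4 also crosses 0; the authors' table gives the value farthest from 0 for each of the 10.

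The authors' deposited table, which holds both values for 55 members, gave wider differences for dim probes. There 3 members passed 2-fold upwards (5.45%) and 4 downwards (7.27%), against 2.01% and 4.02% of 14203 named genes with both values. The higher ones were Epha2, Ntn4 and Robo1, and the lower ones were Efna1, Unc5a, Sema3a and Sema3b. Ntn4 had 4.99 in gene-trapped and 1.999 in revertant cells, and like Robo1 it lay near the level of the blanks, so the size of its fold is uncertain.

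At 1.5-fold the authors' deposited table had 6 members higher (10.9%) and 13 lower (23.6%), against 8.82% and 10.9% of the named genes. The 6 higher ones were Epha2, Ntn4, Robo1, Efna3, Ntn2l and Epha1. Ntn2l had 3.58 in gene-trapped and 2.12 in revertant cells, near the level of the blanks. Besides the 4 that were 2-fold lower, the lower ones were Unc5c, Slit2, Sema4b, Sema3e, Sema5a, Plxna3, Sema3d, Efna5 and Epha7. Some of these also lay near the level of the blanks, so the sizes of their folds are uncertain too. Sema3d had 3.14 in gene-trapped and 4.92 in revertant cells, Sema4b 3.98 and 7.145, and Sema3e 4.90 and 8.17. The share of lower members thus exceeded the background in that table, whereas it was near it after normalisation with the offset. Of 31 members whose mean value in that table was under 25, its column median, 10 were 1.5-fold lower (32.3%), against 11.9% of 6336 named genes under the same limit. Of 24 members at or over it 3 were so (12.5%), against 10.1% of 7867 named genes. This split was chosen after the values had been seen, these are single arrays, and no replicate shows how far such shares vary between cultures.

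Co-receptors and signal carriers of the guidance pathways were also counted, from a list of 60 genes of which 54 have a probe. Above background on both arrays were 48, with a median of -0.051, 20 above 0 and 28 below 0 (58.3%), against 46.6% of all named genes below 0. None was 1.5-fold higher and 2 were 1.5-fold lower, or 4.17%, against the background of 3.52%. The 2 were Fyn, a Src-family kinase that relays ephrin and semaphorin signals, at 6.87 in gene-trapped and 7.53 in revertant cells (-0.65), and Rras, a small GTPase inactivated by plexins, at 7.70 in gene-trapped and 8.32 in revertant cells (-0.62). Rasa1, a GTPase-activating protein that binds Eph receptors, had -0.47, Mical1, an actin-oxidising enzyme that binds plexins, had -0.46, the integrin gene Itgb1 had -0.46, and Sdcbp, which encodes a PDZ protein that binds ephrin-B, had -0.41. On the other side of 0, and named after their values were seen, Enah, an actin regulator of the Ena/VASP family, had 0.27, Srgap3, which encodes a GTPase-activating protein that binds Robo receptors, had 0.20, and Dpysl2, which encodes a mediator of Sema3a signals, had 0.14. Nrp1, the co-receptor of Sema3a, had a raw signal of 836 in gene-trapped and 1108 in revertant cells and a normalised difference of -0.15. The netrin receptor gene Dcc was above background on the revertant array only (raw signals of 21.2 in gene-trapped and 26.4 in revertant cells), and Neo1 had -0.055. With the local background subtracted, Fyn had -0.11 and Itgb1 turned to 1.18, whereas Rras had -1.22, Rasa1 -0.76, Sdcbp -0.74 and Mical1 -0.47.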

How the data were processed

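Gene expression was measured on 2 one-colour arrays, 1 per group, from total RNA that was amplified and labelled with Cy5 per the labels' protocols. The authors deposited the scanner output, a linear spot intensity (the median of the spot at 635 nm, without background subtraction), with readings at 3 scanner gains joined by least squares, per the file headers. A second deposited table holds linear intensity values with a median of 25 in each column; set against the scanner values it follows the spot intensity less about the blank level, in the same direction, and the sources used here do not give the step that made it or the reason for its empty cells. The depth of an array is not a count, and the number of arrays limits the precision.

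Spot intensities were corrected with normexp (offset 50) in limma 3.58.1 (R 4.3.3) on all 27456 spots. Control spots and 2 probes that the scanner had flagged were dropped, and the 23472 others were quantile-normalised as log2 values. The local background column was not subtracted, since it followed spot signal (log2 correlation across probes, which are not independent replicates, 0.956 on the gene-trapped and 0.975 on the revertant array). The procedure was tested on simulated data in which only bright probes were changed, so the test does not cover dim probes, among them those of many members. Symbols came from the platform annotation: 16630 probes have 1 symbol, 0 have several and 6842 have none; a gene with several probes was represented by the one of highest mean raw signal. Of the 64 members, 63 carry a current RefSeq symbol (GRCm38.p6) and 1 matched through a synonym. No genome build is named in the array files, and coordinates are those of the RefSeq promoter table. Where a gene was above background on 1 array only, its fold after quantile normalisation is given as a lower bound. The bound was taken against the other array's value or, if higher, the lowest signal above background on that array.

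With 1 array per group no test was possible, and fixed folds of 2 and 1.5 were counted beside the same over all named genes. Up to 6 members per family with the largest absolute difference, every member past 1.5-fold and every member above background on 1 array only are named with both values. The members, lists, promoter letters and alternatives were chosen with earlier results of these data known. The alternatives were median, 75th percentile and cyclic loess scaling, offset 16, no background correction, subtraction of the local background, no filter, a filter at 5 SD, averaging of a gene's probes, the deposited processed table and a mean in place of the list's median. Tables were made with pandas 2.3.3 and numpy 2.4.6 in Python 3.11.15.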

Additional observations from a re-analysis of the deposited data

Results flagged for a closer look

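At the members' spots the scanner's column of local background, left out of the comparison, held signal above its level at blank spots. Its median over the 64 members was 21.6 on the gene-trapped array and 28.1 on the revertant array, against means of 15.7 and 14.3 at the blank spots of the same arrays. It exceeded the blank mean plus 2 SD at 49 of 64 member spots on the gene-trapped array and at 52 on the revertant array. The same share over all probes is not given. The column followed spot signal across all 23472 probes, so these counts show nothing particular to the members. No cause was tested.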

How the results depend on the processing

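No paired analysis was possible because the groups hold a single array each. Efna1 turned to 0.055 with the local background subtracted, a setting that left 0 members at least 2-fold lower and 1 at least 1.5-fold lower; the column followed spot signal, so its subtraction can remove signal. In the authors' table, over 55 members, 3 members were 2-fold higher and 4 were 2-fold lower, while 6 were 1.5-fold higher and 13 were 1.5-fold lower. Members at least 1.5-fold higher numbered 1 under 75th percentile scaling, 2 with offset 16 and 1 without background correction. A smaller or absent offset widens differences of dim probes by construction, and otherwise the cause was not tested. Shares of all named genes are not given for these settings, nor with the local background subtracted, so these member counts have no background beside them. The members' median was 0.11 under 75th percentile scaling, where the median of all named genes was 0.15. In the other settings run these counts stayed within 1.5 times. Outside 75th percentile scaling the members' median lay between -0.11 and -0.018. It thus moved by less than 0.108, the larger SD of the log2 ratio between arrays among 24 spots of a positive control. That SD describes single spots and not a median over members, so staying under it does not show the median to be stable. Of 39 named members all 39 kept their sign under cyclic loess, offset 16 and no background correction, 32 did under median scaling, 27 under 75th percentile scaling and 29 with the local background subtracted. All 36 with both values kept it in the authors' table. Each member has 1 probe, so the mean of probes changes nothing. Low signal over background limits the Robo, netrin and many semaphorin values.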
